A study of Mus musculus with 32 samples.

Results

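The comparison of TNF plus SCO with untreated cells asked how far adipocytes that met the inflammatory cytokine TNF-alpha (TNF) together with SCO stood from adipocytes that met neither. Its members are 8 of the series' 32 libraries, taken by their labels: 4 libraries of cells given TNF and SCO, and 4 of cells given the DMSO vehicle without TNF, here called untreated. The features are the 14428 genes that passed a filter on low counts, of 57186 listed. All libraries are of 3T3-L1, an established mouse preadipocyte line, differentiated to adipocytes in culture with insulin, dexamethasone and IBMX and then treated for 24 h. The other groups were SCO, CAP7 or rosiglitazone (ROSI, an agonist of the nuclear receptor PPARγ) alone, TNF with the vehicle, and TNF with CAP7 or ROSI, each of 4 libraries. The labels do not define SCO, while an extract of Artemisia scoparia is named in the title of the series, and neither doses nor what CAP7 is could be read from the sources used here. A cultured line holds no blood vessel, nerve or immune cell of fat tissue. The 4 libraries of a group are labelled biological replicates with no day or batch, so p-values measure the spread between these samples.

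PPARγ and C/EBPα are the transcription factors that keep the genes of the mature fat cell on, among them those for lipid uptake, storage and adipokines. TNF acts through its receptor and the kinase IKK to free NF-κB, a transcription factor that switches on chemokines, acute phase proteins and its own inhibitors, and in fat cells it lowers PPARγ, C/EBPα and their targets. PPARγ agonists act on the receptor protein and can raise its targets without raising its own mRNA.

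Total counts ran from 11.3 to 21.9 M in the untreated group and from 16.5 to 30 M with TNF plus SCO. TNF plus SCO replicate 3 stood apart from its group. Over 6133 genes of at least 20 CPM (counts scaled to one common library size), its values scattered around the mean of the other 3 with an SD of 0.204 on the log2 scale, against 0.137 to 0.155 for the others, and the median of 79 ribosomal protein genes was -0.289 from them. For several gene lists, counts without it are also given. The adipocyte markers were present: 10 of them summed to 43500 to 46400 CPM in untreated libraries, 15000 to 17900 with TNF and 33900 to 42400 with TNF plus SCO, although leptin (Lep) averaged only 0.226, 0 and 0.0189 CPM in these 3 groups. Fabp4 carried most of the sum with TNF plus SCO: the other 9 markers summed to 28400 to 30400 CPM untreated, 9650 to 11500 with TNF and 11400 to 13400 with TNF plus SCO, a sum computed after the values were seen. Of 6 macrophage markers, Adgre1, Ptprc and Itgam had no count in the untreated and the TNF plus SCO libraries, and 4 endothelial markers together reached at most 0.769 CPM. In bulk samples fewer cells of a type and less RNA per cell cannot be told apart.

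TNF plus SCO left the cells far from untreated. Of 14428 tested genes, 6853 (47.5%) differed between TNF plus SCO and untreated cells at an edgeR quasi-likelihood adjusted p under 0.05, 3631 of them higher (25.2%) and 3222 lower (22.3%). A change of at least 2-fold was measured for 1044 of the higher and 887 of the lower genes. TNF alone differed from the same untreated libraries in 7817 genes (54.2%), 3852 higher (26.7%) and 3965 lower (27.5%). Without replicate 3 of TNF plus SCO, 3288 genes were higher and 2945 lower. A total of 3231 genes (22.4%) were shown to lie within 0.5 of the untreated level on the log2 scale, which is 1.41-fold, by 2 one-sided tests at an adjusted p under 0.05, and were not called different. Of the genes called different, 1145 were also shown to lie within that margin. For another 4344 genes neither test passed, so those genes were neither shown to differ nor shown to be close.

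Each gene that TNF alone had moved was placed by where it stood with TNF plus SCO. It was left on the TNF side if still called different from untreated in the TNF direction, restored if within the 0.5 margin and not called, past if called on the opposite side of untreated, and otherwise unresolved. Of 3965 genes that TNF lowered, 2743 (69.2%) were left below the untreated level, 631 (15.9%) were restored, 533 (13.4%) were unresolved and 58 (1.46%) were past it. Of 3852 genes that TNF raised, 2996 (77.8%) were left above, 469 (12.2%) were restored, 379 (9.84%) were unresolved and 8 (0.208%) were past. A call does not exclude closeness to untreated. Within the 0.5 margin lay 416 of the genes left below, 393 of those left above, 27 lowered genes past and 3 raised genes past. The restored and past counts depend on the settings: scaled by library size alone, 418 lowered and 739 raised genes were restored and 16 raised genes were past, at a margin of 0.3 only 158 lowered and 92 raised genes were restored, and 5 raised genes were past without any 1 of the untreated libraries. The unresolved genes were weakly expressed, with a median of 1.89 CPM among those lowered and 3.63 among those raised. Another 1048 genes that TNF alone had not called differed with TNF plus SCO, 577 higher and 471 lower. The sorting uses the untreated libraries on both sides, so chance in them enters both calls.

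**Figure D1:**
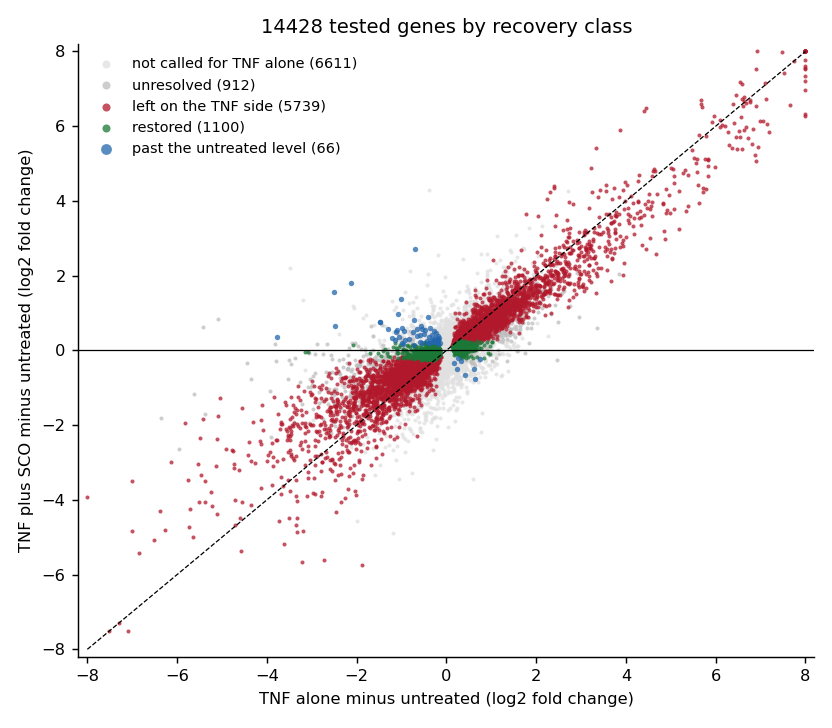
Log2 fold change from untreated cells with TNF alone (x axis) and with TNF plus SCO (y axis), 1 point per tested gene, coloured by class. The horizontal line is the untreated level and the dashed diagonal marks an equal change in both; both axes use the same untreated libraries, and 23 genes beyond 8 on an axis are drawn at the edge. Red points (5739 genes left on the TNF side) lie along the diagonal out to both ends, while green (1100 restored) and blue (66 past) points are mostly small TNF changes.

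Genes left below sat at a median of 64.4% of the untreated level with TNF plus SCO and 55.3% with TNF alone. Among these 2743 genes, 916 (33.4%) were higher with TNF plus SCO than with TNF alone, 108 (3.94%) were lower still, and for 1719 (62.7%) the direct test of TNF plus SCO against TNF alone passed in neither direction. Over all tested genes that direct test called 3074 (21.3%), 1907 higher (13.2%) and 1167 lower (8.09%). Genes left above sat at a median of 156% of untreated with TNF plus SCO and 168% with TNF alone, and 592 of the 2996 (19.8%) were lower than with TNF alone. Of the 631 restored genes that TNF had lowered, 371 (58.8%) were higher than with TNF alone, and for the other 260 the direct test did not pass. Of the 469 restored genes that TNF had raised, 193 (41.2%) were lower than with TNF alone, and for the other 276 (58.8%) the direct test did not pass.

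Restoration was mainly of small TNF changes. Of the 1209 genes that TNF had lowered by less than 0.5 on the log2 scale, 489 (40.4%) were restored, a class that small changes enter easily since they start inside the margin. The share was 9.41% (122 of 1296) for losses of 0.5 to 1, 1.77% (17 of 963) for 1 to 2, and 0.604% (3 of 497) for losses over 2. The 3 genes with a loss over 2 that were restored were Clstn3, Arxes2 and Cmbl, and another 4 of the 497 were past untreated. Among genes that TNF had raised by more than 2, none of 524 was restored and 492 (93.9%) were left above. With TNF calls taken from libraries that hold no untreated cell, TNF plus CAP7 against CAP7, 3231 genes were lowered and 62.2% of them were below untreated with TNF plus SCO, 24.4% restored and 4.27% past. With TNF plus ROSI against ROSI the shares of 3240 lowered genes were 63%, 22.2% and 4.17%. For genes raised in those libraries, 69.9% (of 3381, CAP7) and 68% (of 3594, ROSI) were left above.

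**Figure D2:**
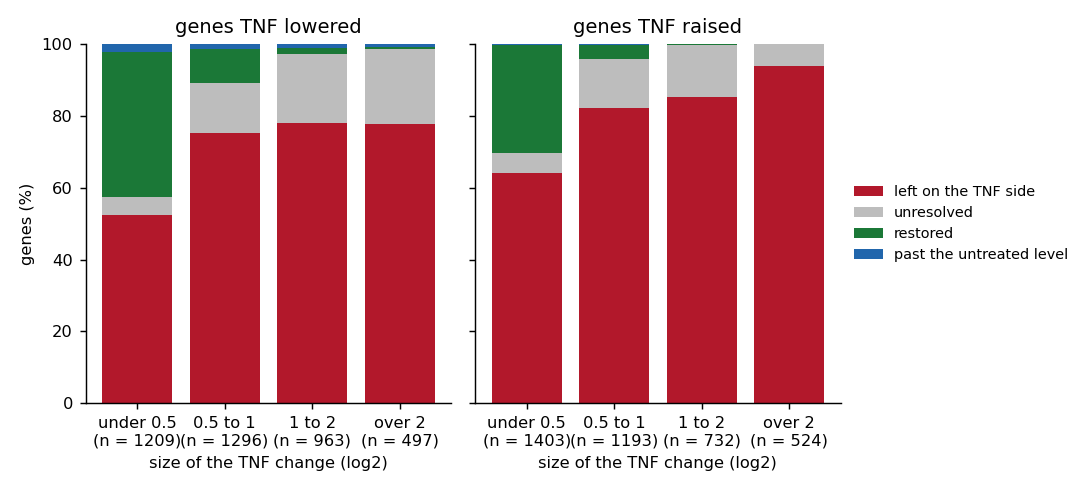
Share of genes in each class (y axis, percent) by the size of the TNF change on the log2 scale (x axis), for genes TNF lowered (left panel) and raised (right panel); n is the number of genes in a bar. The restored share falls from 40.4% to 0.604% of lowered genes as the loss grows, and from 30% to 0 of raised genes.

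Pparg and Cebpa, the central regulators of the fat cell, were left low. Pparg (ENSMUSG00000000440) measured 561, 588, 598 and 540 CPM in the 4 untreated libraries and 227, 225, 173 and 202 with TNF plus SCO. No library of one group reached the other, and the log2 difference was -1.47 ± 0.078 (SE, n = 4 against 4; edgeR adjusted p = 2.84e-18). With TNF alone it had been 217, 213, 207 and 217 CPM, and SCO added to TNF changed it by -0.05 (95% interval -0.21 to 0.11; adjusted p = 0.735). Cebpa (ENSMUSG00000034957), which encodes C/EBPα, went from 341 CPM on average in untreated cells to 49.1 with TNF. It was 134, 151, 139 and 143 CPM with TNF plus SCO, higher than with TNF alone (log2 1.53 ± 0.085) and still -1.27 ± 0.083 from untreated. Klf15, a factor of late fat cell differentiation, was left below at -1.62, and the early factors Cebpb (0.89) and Klf5 (3.13) were left above. Cebpd, an early factor that TNF raised by 1.01, was restored (0.22 ± 0.10, adjusted p = 0.0748), near the edge of the call. Nr1h3, the liver X receptor alpha, was restored too (-0.10), and Tle3, a co-regulator of PPARγ, was past untreated at 0.55 ± 0.089. In the list of 20 tested adipogenic factors, 4 were higher and 11 lower than untreated, with a median of -0.304 against -0.00119 over all tested genes.

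Genes that mark the mature fat cell were left below in 16 of the 20 cases that TNF had lowered (median -1.24 with TNF plus SCO, -2.2 with TNF alone). Of the others 1 was restored and 3 were past untreated. Over all genes TNF lowered, 69.2% were left below, 15.9% restored and 1.46% past. Of the 20, 18 were higher with TNF plus SCO than with TNF alone and 0 lower. Adipoq (ENSMUSG00000022878), which encodes the insulin-sensitizing hormone adiponectin, measured 9588, 9771, 9824 and 9351 CPM in untreated libraries and 3639, 3556, 3439 and 3376 with TNF plus SCO. The groups did not overlap, and the mean with TNF plus SCO was 36.4% of the untreated mean, a log2 difference of -1.46 ± 0.071 (adjusted p = 1.89e-19). Cfd, the complement protease adipsin, was at 43.1% of untreated with TNF plus SCO and 44.2% with TNF alone, and the direct difference between these was -0.04 (95% interval -0.22 to 0.15). Retn, for resistin, was left at -2.08 and Slc2a4, for the insulin-responsive glucose transporter GLUT4, at -1.31. Adrb3, the fat cell's beta-3 adrenergic receptor, measured 303, 286, 295 and 266 CPM in untreated libraries and 23.3, 21.2, 19.2 and 19.2 with TNF plus SCO (log2 -3.79 ± 0.12). The single restored member was Arxes2 (ENSMUSG00000048040), at 122, 131, 135 and 136 CPM untreated, 17.3, 16.3, 13.2 and 15.3 with TNF and 125, 127, 125 and 128 with TNF plus SCO. The untreated and TNF plus SCO libraries overlapped, and the difference of -0.05 had a 95% interval of -0.23 to 0.12. Arxes1, its near copy, was past at 0.64; the pair is so alike that reads may have been split between them, and the handling of such reads is not stated.

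Targets of PPARγ spread over all classes. Of 34 tested, TNF lowered 27, of which 16 were left below, 3 restored, 2 unresolved and 6 past untreated. Among all genes TNF lowered, 69.2% were left below, 15.9% restored and 1.46% past. Higher with TNF plus SCO than with TNF alone were 31 of the 34 targets. Fabp4 (ENSMUSG00000062515), the fatty acid carrier of fat cells, measured 16133, 15680, 16415 and 15137 CPM untreated, 5095, 5825, 5524 and 6325 with TNF and 25888, 28986, 22555 and 29105 with TNF plus SCO. Every TNF plus SCO library was above every untreated one (log2 0.75 ± 0.10, adjusted p = 7.48e-08). Cd36, the fatty acid translocase, was past by 0.32 ± 0.063, with 923, 910, 956 and 876 CPM against 734, 696, 703 and 802. The other members past untreated were Acaa1b (1.81), a peroxisomal thiolase at 7.12 CPM with TNF plus SCO, Pdk4 (0.53), a kinase that switches off pyruvate dehydrogenase, the lipid droplet coat Plin4 (0.30), and Pck1. Pck1 (ENSMUSG00000027513), a key enzyme of glyceroneogenesis, fell with TNF from 57.3, 41.9, 43.3 and 50.6 to 3.55, 4.84, 3.05 and 2.92 CPM and stood at 64.4, 57.2, 57 and 70.8 with TNF plus SCO. The ranges of untreated and TNF plus SCO libraries overlapped, and its call (0.36 ± 0.13, edgeR adjusted p = 0.0195) was lost without untreated replicate 2 (0.30, edgeR adjusted p = 0.0788), untreated replicate 3 (0.32, adjusted p = 0.0687) or TNF plus SCO replicate 4 (0.30, adjusted p = 0.0785). Among the restored members were Fabp5 (-0.14), another fatty acid carrier, and Pex11a (0.06), a peroxisomal membrane protein. SCO without TNF had set several of these genes above untreated: Fabp4 averaged 37300 CPM (log2 1.24 ± 0.10), Cd36 1438 and Pck1 151. Their levels with TNF plus SCO thus lay between untreated and SCO alone, while Pparg averaged 405 CPM with SCO alone, below untreated (log2 -0.50 ± 0.078, adjusted p = 7.56e-06). Lpl, the lipase that frees fatty acids from lipoproteins, was left at 39.3% of untreated (log2 -1.35 ± 0.081), and the lipid droplet gene Cidec at -1.26 although SCO raised it by 2.59 over TNF alone. Angptl4, an inhibitor of that lipase, and Plin2, a droplet coat, had been raised by TNF and were higher still with TNF plus SCO (Angptl4 1.96 with TNF and 2.37 with both; Plin2 0.75 and 1.41).

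**Figure D3:**
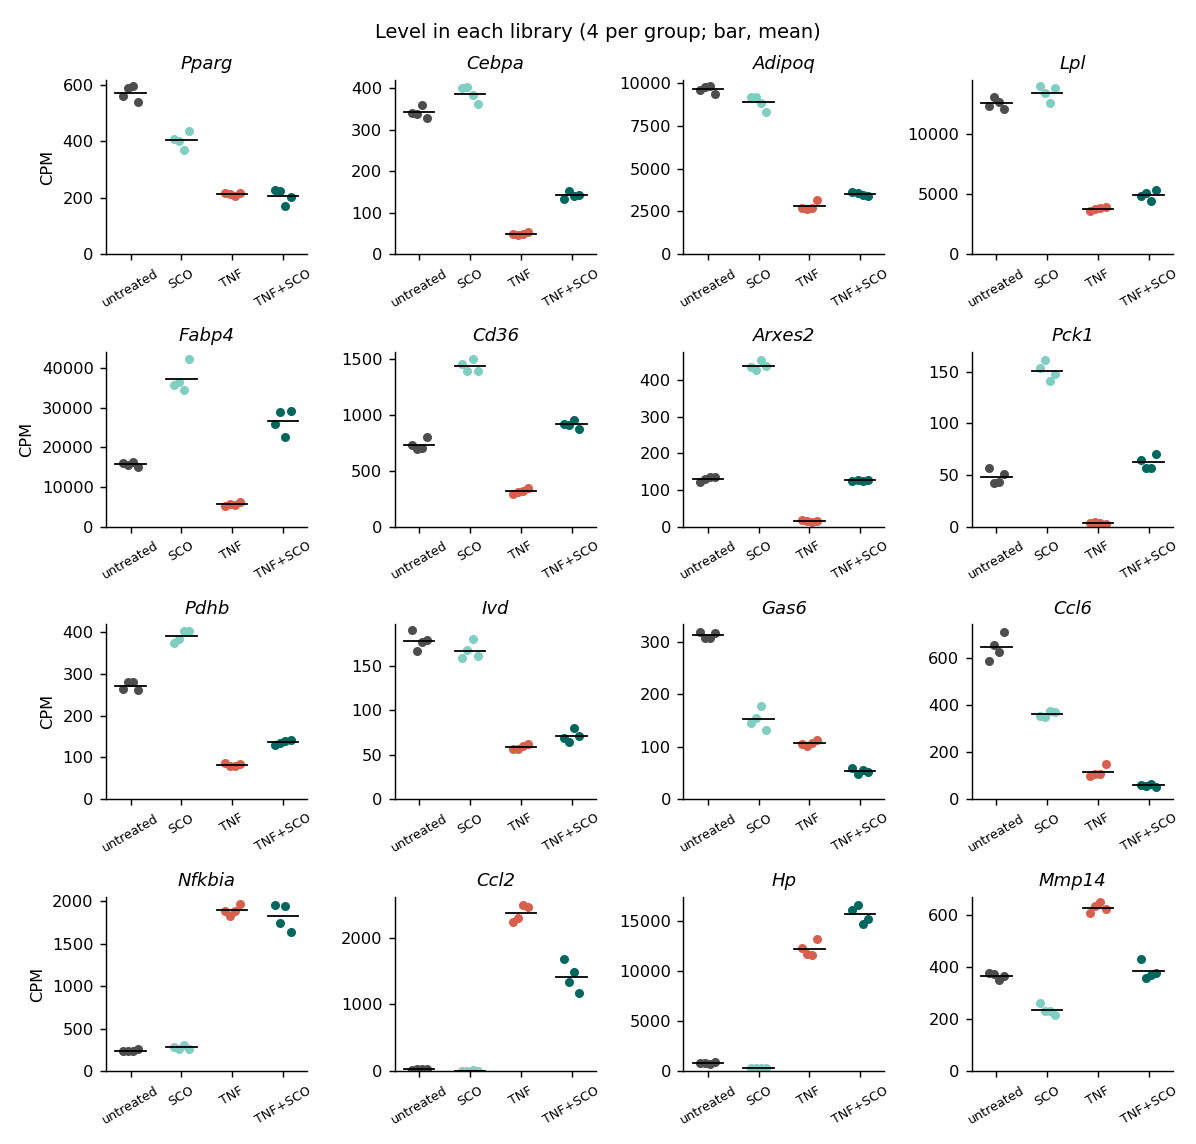
Level in CPM (y axis, linear, from 0) of 16 genes in each of the 4 libraries of untreated cells, SCO alone, TNF alone and TNF plus SCO (points; the bar is the group mean). Pparg, Adipoq and Lpl lie well below the untreated level, Fabp4 and Cd36 pass the untreated level, Arxes2 and Mmp14 meet it, Gas6 and Ccl6 lie below TNF alone, and Nfkbia, Ccl2 and Hp stay high.

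Of 15 lipogenesis genes that TNF lowered, 11 were left below, 2 restored and 2 unresolved (median of 18 tested, -0.591), and 16 of the 18 were higher than with TNF alone. The shares left below and restored were near those of all genes TNF lowered (69.2% and 15.9%). Fasn, fatty acid synthase, measured 601, 556, 629 and 537 CPM untreated and 107, 126, 143 and 126 with TNF plus SCO (log2 -2.21 ± 0.11, adjusted p = 2.74e-18). Thrsp, a lipogenic factor, was left at -4.07 ± 0.14, and Scd1, the main stearoyl desaturase, was left at -1.52 ± 0.085; its copies share sequence. The desaturase Fads1 (-0.04 after -0.43 with TNF) and the elongase Elovl5 (-0.11 after -0.34) were restored, although Elovl5 was called lower when scaled by library size alone (edgeR adjusted p = 0.0324). In triglyceride synthesis 13 of 14 lowered genes were left below, among them Gpd1 (-1.25), Lpin1 (-1.23) and the seipin gene Bscl2 (-1.37), and none was restored (12 of 14 left and 1 restored without TNF plus SCO replicate 3). In cholesterol synthesis 17 of 22 were left below, for example Insig1 (-0.96) and Fdps (-0.60), 4 were restored, among them Mvd (0.12), and 1 was past.

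Of 17 lipolysis and lipid droplet genes that TNF lowered, 11 were left below, 4 restored, 1 unresolved and 1 past. Among all genes TNF lowered, 69.2% were left below and 15.9% restored. The median of the 22 lipolysis and lipid droplet genes tested was -0.131. Its sign is not firm: with 1 library left out, which mostly let 23 genes pass the filter, it ran from -0.151 to 0.0251. Pnpla2, for adipose triglyceride lipase, was left at 81.2% of untreated (log2 -0.30 ± 0.071) after 33.1% with TNF alone. Lipe, for hormone-sensitive lipase, was left at 62% after 16.2%. Abhd5, the activator of adipose triglyceride lipase, was restored at 158, 168, 164 and 181 CPM against 161, 179, 169 and 156, and so were Prkar2b (-0.01), a regulatory subunit of protein kinase A, and the antilipolytic receptors Adora1 (0.01) and Hcar1 (0.19), of which Hcar1 was called higher with only the 12 libraries of the 3 groups (edgeR adjusted p = 0.0374). The phosphodiesterase gene Pde3b, which carries insulin's antilipolytic signal, stayed low at -1.52.

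Of 23 fatty acid oxidation genes that TNF lowered, 11 were left below, 8 restored, 1 unresolved and 3 past, a split that moved with the settings. Without TNF plus SCO replicate 3, 9 were left below and 10 restored, whereas scaling by library size alone gave 14 and 4, and a filter of 5 CPM or only the 12 libraries of the 3 groups gave 14 and 5. Hadha and Hadhb, the subunits of the trifunctional protein, were restored, Hadha at 327, 318, 329 and 336 CPM against 336, 328, 343 and 333 (log2 -0.03) and Hadhb at -0.17 ± 0.077, near the edge of the call. Acads, the short-chain dehydrogenase, was at -0.15, restored here but called lower in 3 settings (edgeR adjusted p = 0.0219 by library size alone, 0.0417 with the 5 CPM filter and 0.0240 with the 12 libraries), and Slc25a20, the carnitine carrier, was restored at -0.16. Etfb, a subunit of the electron carrier that takes up their electrons, was left below at -0.67 ± 0.070, and Cpt2 at -0.51 ± 0.062. All 38 respiratory chain and TCA cycle genes that TNF lowered, of 39 tested, were left below (median -0.553 with TNF plus SCO, -0.908 with TNF alone). All 38 were also below without TNF plus SCO replicate 3. Pdhb, a subunit of pyruvate dehydrogenase, measured 265, 281, 281 and 261 CPM untreated, 86.3, 79.4, 78.3 and 82.9 with TNF and 128, 134, 139 and 142 with TNF plus SCO (log2 -1.0 ± 0.063, adjusted p = 3.03e-16). Ndufs1 of complex I was left at -0.78 and the complex II subunits Sdhb and Sdhc at -0.70 and -0.80. Suclg2, which TNF had not called, was the remaining member (0.04). Of the 39, 37 were higher with TNF plus SCO than with TNF alone, and the median difference was 0.369. The difference between the oxidation list and the respiratory list was not tested.

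Breakdown of branched-chain amino acids, a pathway of mature fat cells, was left below in all 20 genes that TNF lowered (19, with 1 restored, without TNF plus SCO replicate 3), with a median of -0.7 over 21 tested. Ivd, isovaleryl-CoA dehydrogenase, measured 191, 167, 178 and 180 CPM untreated and 69.3, 64.3, 79.7 and 70.6 with TNF plus SCO (log2 -1.33 ± 0.079), and Bcat2, the first enzyme of the pathway, was left at -1.47 ± 0.086. With TNF alone the list median had been -0.945. Of the 21 genes, 15 were higher with TNF plus SCO than with TNF alone and 0 lower (median difference 0.326). Mccc1 was -1.25 from untreated, and its change by SCO under TNF was 0.22 (adjusted p = 0.0616). Above untreated was Bckdhb, a subunit of the branched-chain keto acid dehydrogenase that TNF had not called (0.90 ± 0.091). Of 16 insulin signalling and glucose uptake genes that TNF lowered, 14 were left below, among them Irs1 (-1.26 ± 0.075), the insulin receptor's substrate, and Akt2 (-0.80). Of 10 raised genes 7 were left above (77.8% of all genes TNF raised were), with the small GTPase gene Rhoq (0.70) among them, and 3 were restored. Of 20 adipokine and growth factor genes tested, TNF had called 19, and all 19 were left on the TNF side. Gas6, a ligand of the TAM receptors, measured 320, 308, 308 and 318 CPM untreated, 104, 101, 107 and 112 with TNF and 59.5, 46.8, 55.4 and 52.1 with TNF plus SCO, a log2 change of -0.99 ± 0.094 from TNF alone.

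**Figure D4:**
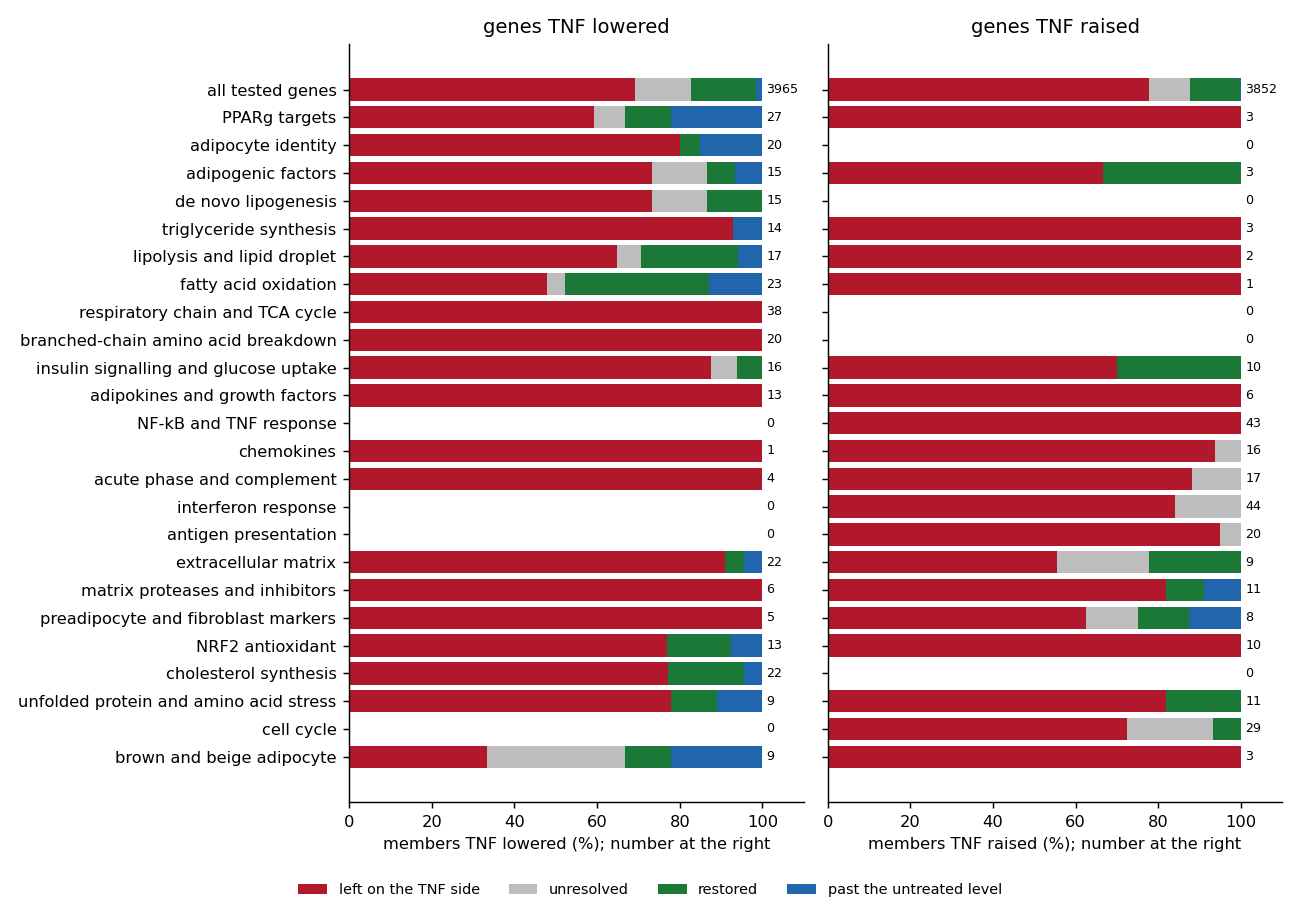
Share (x axis, percent) of the members of each gene list, and of all tested genes in the top row, in each class with TNF plus SCO, for members TNF lowered (left) and raised (right); the number of members is at the right of each bar. All 38 respiratory chain and TCA cycle genes and all 43 NF-κB and TNF response genes are left on the TNF side, while 11 of 23 fatty acid oxidation genes are restored or past.

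The NF-κB and TNF response was left in place: all 43 tested genes of the list were raised by TNF and all 43 were above untreated with TNF plus SCO (median 2.66, against 3.01 with TNF alone). Without TNF plus SCO replicate 3, 42 of the 43 were called. Of these 43 genes, 21 were lower and 2 higher with TNF plus SCO than with TNF alone. The 6 macrophage markers summed to 1.78 to 4.03 CPM in untreated libraries, 10.6 to 14.1 with TNF and 7.37 to 8.19 with TNF plus SCO, mostly Cd68, and their part in the inflammatory lists was not tested. Nfkbia (ENSMUSG00000021025), the inhibitor IκBα that NF-κB itself induces, measured 239, 235, 238 and 266 CPM untreated and 1953, 1744, 1952 and 1644 with TNF plus SCO (log2 2.90 ± 0.068, adjusted p = 9.49e-29). SCO changed it under TNF by -0.06 (95% interval -0.19 to 0.08). Tnfaip3, the ubiquitin editor A20, was left at 3.81, the kinase Ripk2 at 3.48 and Csf1, a growth factor of macrophages, at 2.21. Sod2, the mitochondrial superoxide dismutase, went the other way under SCO and was higher than with TNF alone (2.22 with TNF, 2.69 with both). Il6 measured 2.23, 1.75, 1.64 and 0.651 CPM against 0.0868, 0.194, 0.330 and 1.18, with overlapping libraries, although the fit called it (2.02 ± 0.50, adjusted p = 6.12e-04).

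To show what precedes genes of this response, the 250 bases before the start of Nfkbia and of the chemokine gene Cxcl1 (log2 5.15 above untreated) are printed 5′ to 3′ from RefSeq, build GRCm38.p6, with matches to a κB motif in capitals. The motif searched was GGGA and CC with any 4 bases between them, on both strands. Nfkbia lies at chr12:55492648-55492897, minus strand with 2 matches, and Cxcl1 at chr5:90890995-90891244, plus strand with 3, of which 2 overlap.
Nfkbia: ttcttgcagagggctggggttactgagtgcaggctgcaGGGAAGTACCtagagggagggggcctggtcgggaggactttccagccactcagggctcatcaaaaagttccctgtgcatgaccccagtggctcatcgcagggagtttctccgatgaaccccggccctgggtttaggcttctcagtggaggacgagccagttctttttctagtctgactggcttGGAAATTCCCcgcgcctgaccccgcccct
Cxcl1: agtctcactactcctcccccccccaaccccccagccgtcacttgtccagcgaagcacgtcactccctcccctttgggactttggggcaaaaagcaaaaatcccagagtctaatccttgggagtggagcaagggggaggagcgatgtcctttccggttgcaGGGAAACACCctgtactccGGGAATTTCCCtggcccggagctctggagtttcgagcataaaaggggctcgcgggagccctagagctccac
The table matched 10060 of the 13980 distinct symbols tested. Over 300 bases (250 before to 50 after a start) the motif was found in 15 of 32 NF-κB list genes (46.9%) and in 30.5% of the 10060 tested genes in the table (22.9% of all 27025 in it). It was not particular to this list, being in 13 of 25 PPARγ targets (52%) and 21 of 39 lowered genes past untreated (53.8%). Its share was 33% among 2328 genes left above and 30.8% among 373 restored ones, with no test made. A match is a description of letters, not a binding site.

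Of 16 chemokines that TNF raised, 15 were left above and 1 was unresolved (14 left above without TNF plus SCO replicate 3), and 13 of 20 tested were lower than with TNF alone. Ccl2 (ENSMUSG00000035385), which draws monocytes, measured 22.4, 29.1, 28.9 and 29 CPM untreated, 2228, 2287, 2486 and 2456 with TNF and 1680, 1333, 1480 and 1176 with TNF plus SCO. All 4 libraries with SCO were below all 4 with TNF alone, yet the group was 5.70 ± 0.13 above untreated. Ccl5 was at 182, 90.5, 115 and 102 CPM after 394, 447, 453 and 533 with TNF alone, against 0.651, 0.842, 0.462 and 0.504 untreated (log2 7.60 ± 0.50). Ccl9 averaged 500 CPM with TNF and 493 with both, a difference that did not pass the test (adjusted p = 0.919). Ccl6, a chemokine that untreated adipocytes made at 589, 656, 624 and 710 CPM, went the other way: TNF lowered it and with TNF plus SCO it was 59.8, 55.2, 63.2 and 52.7 CPM (log2 -3.48 ± 0.11), a change of -0.99 from TNF alone. Of 17 acute phase and complement genes that TNF raised, 15 were left above, where 77.8% of all genes TNF raised were. Of the 24 tested, 13 were lower and 2 higher with TNF plus SCO than with TNF alone (median difference -0.559). Saa3, a serum amyloid, stood at 3777, 2734, 2815 and 3091 CPM against 1.95, 3.11, 1.65 and 1.26, 10.58 above untreated after 11.63 with TNF alone, with copies in the genome that share sequence. Haptoglobin (Hp) was 16066, 16557, 14677 and 15126 CPM against 808, 778, 708 and 885 and higher than with TNF alone by 0.36 ± 0.082, as was hemopexin (Hpx, 0.63). Complement factor B (Cfb) was 6.11 above untreated, and its change by SCO was 0.18 (adjusted p = 0.212).

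In the interferon response, 28 of 44 tested genes were lower than with TNF alone and none was higher, a median change of -0.951. TNF had raised all 44, and with TNF plus SCO 37 were left above, 7 were unresolved and none was restored (median 1.78, against 2.68 with TNF alone). Over all genes TNF raised, 77.8% were left above, 9.84% unresolved and 12.2% restored. The libraries varied, with list medians of 2.35, 1.17, 2.1 and 1.61 above the untreated mean in the 4 TNF plus SCO libraries and -0.656, 0.146, -0.0219 and 0.634 in the untreated ones. Cxcl10 also varied, 180, 53.5, 92.2 and 90 CPM against 0.347, 0.388, 2.37 and 2.77 untreated. Gbp5 (ENSMUSG00000105504), a guanylate-binding GTPase, had no count in the 4 untreated libraries and 42.4, 23.6, 42.6 and 23.3 CPM with TNF plus SCO, at least 721-fold above a floor of 3 counts over the untreated group (0.0458 CPM). With TNF alone it was 59.6, 61.4, 67.3 and 85.7 CPM. Gbp2, of the same family, was left at 3.98 ± 0.15, Irf1, a transcription factor of this response, at 2.42, and the immunoproteasome subunit Psmb10 at 2.39. Antigen presentation was left above in 19 of 20 raised genes (18 without TNF plus SCO replicate 3), for example H2-K1 (1.87), a class I heavy chain, and Tapbp (1.84), the peptide loading factor tapasin.

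The 250 bases before the starts of Gbp5, Gbp2 and Cxcl10 are shown because each holds the interferon response motif, TTTC and TTTC with any 2 bases between them, in capitals, on either strand (RefSeq, GRCm38.p6, 5′ to 3′). Gbp5 lies at chr3:142496684-142496933, plus strand, Gbp2 at chr3:142620413-142620662, plus strand and Cxcl10 at chr5:92348890-92349139, minus strand.
Gbp5: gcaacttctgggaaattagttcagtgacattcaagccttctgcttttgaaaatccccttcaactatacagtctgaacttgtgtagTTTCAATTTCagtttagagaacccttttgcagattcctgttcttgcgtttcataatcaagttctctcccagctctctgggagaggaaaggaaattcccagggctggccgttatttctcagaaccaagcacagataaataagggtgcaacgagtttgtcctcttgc
Gbp2: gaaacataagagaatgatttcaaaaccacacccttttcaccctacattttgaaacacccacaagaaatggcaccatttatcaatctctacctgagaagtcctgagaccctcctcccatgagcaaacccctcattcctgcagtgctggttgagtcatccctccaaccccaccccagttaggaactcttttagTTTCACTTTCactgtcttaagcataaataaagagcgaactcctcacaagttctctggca
Cxcl10: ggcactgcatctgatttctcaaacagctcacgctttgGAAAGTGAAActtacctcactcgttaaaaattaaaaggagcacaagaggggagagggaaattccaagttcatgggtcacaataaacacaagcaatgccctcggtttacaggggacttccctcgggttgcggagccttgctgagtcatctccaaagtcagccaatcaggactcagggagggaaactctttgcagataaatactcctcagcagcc
The matches begin 165, 59 and 213 bases before the start. The motif was found in 19 of 34 interferon list genes with a promoter in the table (55.9%) and in 3.74% of tested genes (3.99% of all genes in it), within the 300-base window. It was in 5.84% of genes left above and 2.41% of raised genes that were restored, where no test was made.

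Matrix genes were lowered further. TNF alone had lowered 22 of 39 tested extracellular matrix genes and raised 9, with a median of -0.251, and with TNF plus SCO 23 were lower and 6 higher than untreated, with a median of -0.636. Under TNF, SCO lowered 22 of the 39 and raised 2. SCO without TNF lowered 27 and raised 2 (median -0.453). Against TNF plus ROSI, 9 of the 39 were lower and 1 higher with TNF plus SCO (median -0.0236). Col3a1, a fibrillar collagen, measured 1426, 1482, 1330 and 1329 CPM untreated, 567, 560, 587 and 587 with TNF and 473, 410, 345 and 359 with TNF plus SCO (log2 -1.81 ± 0.083). Sparcl1 was left at -2.06 and Tgfbi at -3.27, and both were below TNF alone, while Col6a2 (-1.20) was not (-0.04, adjusted p = 0.770). Aspn, for the matrix proteoglycan asporin, was at 4.92, 5.66, 3.62 and 3.37 CPM against 67.7, 66.5, 65.3 and 53.7 (log2 -3.84 ± 0.14). Of 21 matrix protease and inhibitor genes tested, 10 were below and 9 above untreated with TNF plus SCO. Their median was -0.237 (0.0434 with a filter of 5 CPM), against 0.729 with TNF alone. Under TNF, SCO lowered 11 of the 21 and raised 1. Of the 11 that TNF raised, 9 were left above, near the 77.8% of all genes TNF raised. Among the 9 were Mmp3 at 7.15 ± 0.18, Mmp13 at 4.52 and the inhibitor Timp1 at 3.03. Mmp14, the membrane-type protease, was restored: 376, 374, 349 and 366 CPM untreated, 606, 634, 647 and 622 with TNF and 431, 358, 368 and 378 with TNF plus SCO (log2 0.07, 95% interval -0.09 to 0.23). Acta2, smooth muscle actin, was restored from a TNF rise (0.97 to 0.12), and Vim, for vimentin, went past, 1196, 1147, 974 and 1087 CPM against 1462, 1418, 1367 and 1310 (log2 -0.34 ± 0.070). The summed level of 5 preadipocyte markers was 841 to 997 CPM untreated, 522 to 589 with TNF and 451 to 565 with TNF plus SCO, and its part in the matrix result was not tested. Dlk1 made up most of this sum, averaging 808, 433 and 383 CPM in these groups. Pdgfra went the other way (26.4, 56.7 and 42.9 CPM). Thy1 (56.8, 39.8 and 30.2), Ly6a (35.8, 35.6 and 25.4) and Cd34 (0.319, 0.107 and 0.0526) were lowest with TNF plus SCO. Of 22 preadipocyte and fibroblast markers 11 were below untreated, including Dlk1 (-1.08) and Ly6c1 (-2.61), and 5 above, including Cd44 (2.94).

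**Figure D5:**
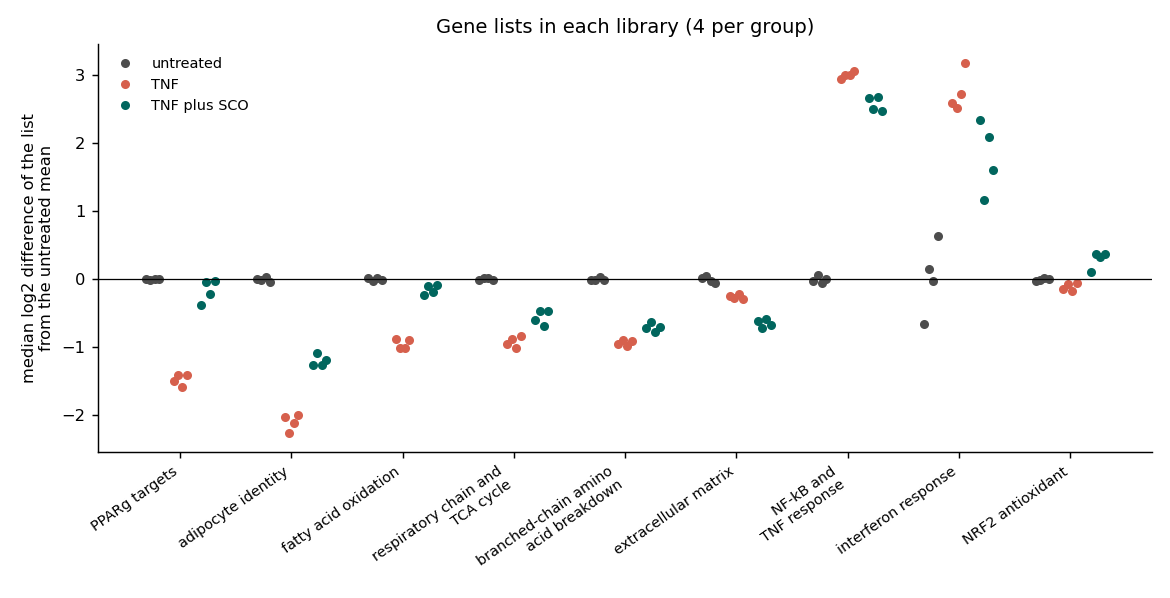
Median log2 difference of 9 gene lists from the untreated mean (y axis) in each library of untreated cells, TNF alone and TNF plus SCO (4 points each). With TNF plus SCO the extracellular matrix list is farther from 0 than with TNF alone in all 4 libraries, the interferon list spreads from 1.17 to 2.35, and the respiratory chain list lies between the other groups.

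NRF2 is a transcription factor that answers electrophiles and oxidants. Of 33 antioxidant genes under it, 18 were higher than untreated and 10 lower (16 and 9 without TNF plus SCO replicate 3; median 0.31, against -0.0902 with TNF alone), and 22 were higher than with TNF alone. All 10 that TNF raised were left above (9 of 10 without TNF plus SCO replicate 3). Nqo1, a quinone reductase, measured 16.7, 16, 14.5 and 18.2 CPM untreated, 38.8 with TNF on average and 54.7, 69.7, 66.7 and 69.7 with TNF plus SCO (log2 2.0 ± 0.11, adjusted p = 8.09e-18). Cbr3 was 1.99 above and heme oxygenase (Hmox1) 1.12 ± 0.20. The glutathione transferase Gstm1 remained below at -0.83 ± 0.075, with near copies that share reads. Genes of the unfolded protein response that TNF raised, such as Hspa5 (0.66), the chaperone BiP, were left above in 9 of 11 cases. That share was near the 77.8% of all genes TNF raised. The serine synthesis gene Phgdh was left below (-1.02). Cell cycle genes were above untreated in 21 of 33 cases and below in none (median 0.544). TNF alone had raised 29 of the 33 (median 0.687), and SCO without TNF lowered 17 and raised 0 (median -0.455). Above untreated were Mcm3 (1.35 ± 0.10), a subunit of the replicative helicase, and Hells (1.35), a chromatin remodeller, whereas the mitotic genes Plk1 (0.01) and Ccna2 (-0.02) were restored. Of 14 brown and beige adipocyte genes 6 were above and 3 below untreated, against 25.2% and 22.3% of all tested genes. TNF alone had raised 3 of the 14, and all 3 were left above. The count above untreated ran from 3 to 6 over the settings, and was 4 without TNF plus SCO replicate 1 or 4. Cox8b was restored (0.05) and Kcnk3 left below (-1.13).

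Among the largest increases was Cybb, a subunit of the phagocyte NADPH oxidase, at 65.9, 61.3, 70.5 and 73.3 CPM against at most 0.129 in an untreated library, with no change by SCO that passed the test (0.09, adjusted p = 0.674). Cd68, a macrophage marker, was 6.12 CPM with TNF plus SCO against 0.942 untreated, while Csf1r (1.14 and 1.27) and Lyz2 (0.376 and 0.429) were not called in either TNF comparison. Slc15a3, an endolysosomal transporter, was left at 7.74, and Ch25h, cholesterol 25-hydroxylase, averaged 9.60 CPM with a count in 1 of 4 untreated libraries (0.13 CPM). Car3, for carbonic anhydrase 3, an abundant protein of fat, was left at -4.0 ± 0.26, Adcyap1r1 at -3.67 and the sulfotransferase Sult1a1 at -3.79. Past untreated, the largest increase was of Krt79, a keratin that TNF lowered by 0.71 on the log2 scale: 4.38, 2.07, 2.51 and 1.76 CPM untreated and 15.3, 21.2, 17.4 and 20.1 with TNF plus SCO (log2 2.71 ± 0.18). SCO alone also raised it (1.72), as it did Nat8l, which makes N-acetylaspartate (1.16 with SCO alone and 0.76 with TNF plus SCO), and Peg10 (0.85 and 0.60). Genes restored from TNF losses also included Clstn3 (2.97, 1.94, 2.57 and 2.12 CPM with TNF, 19.8, 19.8, 21.4 and 22.7 with TNF plus SCO, 20.6, 19.7, 22.5 and 23.5 untreated), Cmbl (0.13) and Adipor2, an adiponectin receptor (-0.06, 95% interval -0.18 to 0.07). SCO alone against untreated called 2781 of all tested genes (19.3%), 10.3% higher and 8.99% lower.

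The recovery was set beside that with ROSI by a direct test that uses no untreated library. TNF plus SCO differed from TNF plus ROSI in 2074 genes (14.4%), 828 higher (5.74%) and 1246 lower (8.64%). Against ROSI, 29 of the 34 PPARγ targets stood lower with SCO and 0 stood higher (median -0.635), and 38 of 39 respiratory chain and TCA cycle genes were lower (median -0.356). Pck1 was 62.4 CPM with TNF plus SCO and 215 with TNF plus ROSI (log2 -1.79 ± 0.13), and Clstn3, which SCO restored, was 59.4 CPM with ROSI (-1.51). Pparg did not differ beyond the test (0.09, adjusted p = 0.518), and 194 CPM was measured with TNF plus ROSI. Of the NF-κB list 5 genes were higher and 4 lower with SCO, of the interferon list 8 were lower and none higher. NRF2 genes were more often higher with SCO, 15 against 6 lower, among them Nqo1 (1.08 ± 0.10) and Hmox1 (0.98). Ephx1, the microsomal epoxide hydrolase, restored with SCO at 57.9 CPM against 65.3 untreated, was 23 with TNF plus ROSI (log2 1.33 ± 0.12). The same direct test against TNF plus CAP7 called 596 of 14428 genes higher and 726 lower with TNF plus SCO. Of the 33 NRF2 genes 5 were higher and 1 lower than with CAP7 (median 0.0289, against 0.288 for ROSI). Of the 34 PPARγ targets 15 were lower and 0 higher (median -0.232). Doses are not given, so the compounds cannot be matched by dose.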

How the data were processed

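The deposited values are raw counts per Ensembl gene for 32 QuantSeq 3′ mRNA libraries, which count reads near transcript ends. The submitters' processing notes name cutadapt 4.9, STAR 2.7.11b, HTSeq 2.0.5, R 4.4.1, limma 3.60.6 and the build GRCm39, and the handling of strand and of reads shared by near copies is not given in the sources used here. Genes were filtered with filterByExpr, scaled with TMM and fitted with edgeR 4.0.16 (R 4.3.3, quasi-likelihood, 8 group means over 32 libraries, 24 residual degrees of freedom), with Benjamini-Hochberg adjustment over all 14428 genes at 0.05. CPM used TMM library sizes. Closeness to untreated was tested against a margin of 0.5 (log2) by one-sided tests from the same fit. DESeq2 1.42.0 and limma-voom (limma 3.58.1) were alternatives, and the code was tested on simulated data. 3′ counts do not allow levels to be compared between genes with confidence.

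The genes named were the largest differences (at least 16 CPM, no overlap of libraries) in each class and against TNF plus ROSI, up to 4 members of each list by p and up to 4 restored, and a set of fixed genes. Pdk4, Plin4, Suclg2 and Bckdhb were named after their values were seen. The comparison and the lists were chosen with earlier results of these data known. Replicate numbers did not pair the libraries: the correlation of deviations of same-numbered libraries ran from -0.0326 to 0.0455 among the untreated, TNF and TNF plus SCO groups.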

Additional observations from a re-analysis of the deposited data

Results flagged for a closer look

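In 257 groups of 4 libraries examined (the named genes in the untreated and the TNF plus SCO libraries, and total counts), 20 had a library farther from the other 3 than Dixon's 95% critical value for 4 samples. Chance alone flags about 1 in 20 groups. Of these, 5 were untreated replicate 4 and 3 were TNF plus SCO replicate 3. Without the library in question none of these genes changed direction where it was called with or without that library. Hadhb alone among them changed its call, being lower than untreated without untreated replicate 2 (-0.21, edgeR adjusted p = 0.0405).

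Among untreated libraries, replicate 1 was low for Ccl2 (22.4 CPM, others 28.9 to 29.1) and high for Ch25h (0.13 CPM, others 0) and Suclg2 (50.6, others 47.4 to 47.9). Replicate 2 was low for Hadhb (57.5 CPM, others 64.3 to 65.5). Replicate 3 was low for Mmp13 (1.45 CPM, others 3.02 to 3.17) and high for Peg10 (153, others 133 to 136) and Plin4 (597, others 547 to 552). Replicate 4 was high for Acads (295 CPM, others 273 to 275), Cd68 (1.68, others 0.647 to 0.791), Gbp2 (16.6, others 10 to 11.1), Nfkbia (266, others 235 to 239) and Rhoq (211, others 195 to 197).

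With TNF plus SCO, replicate 1 was low for Cpt2 (53.5 CPM, others 59 to 60.1) and Scd1 (3787, others 4080 to 4108) and high for Dlk1 (439, others 363 to 366). Replicate 2 was low for Acaa1b (5.25 CPM, others 7.63 to 7.84) and high for Insig1 (100, others 86.7 to 88.9). Replicate 3 was low for Cfb (972 CPM, others 1137 to 1169) and Tnfaip3 (42, others 44.6 to 45) and high for Plin4 (779, others 649 to 668).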

How the results depend on the processing

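Over all alternatives 243 of 270 counts stayed within 1.5 times the reported count. None of the 2813 values of named genes changed direction where the gene was called in the main or the alternative setting. Changes of direction of genes called in neither were not counted. Scaled by library size alone, 418 lowered and 739 raised genes were restored and 16 raised genes were past. A filter of 5 CPM left 152 lowered and 186 raised genes unresolved, since it removes weak genes. Raised genes past untreated numbered 15 with only the 12 libraries of the 3 groups and 5 with libraries thinned to the lowest total. A margin of 0.3 put 735 genes within it, with 158 lowered and 92 raised genes restored and 1006 and 756 unresolved. A margin of 1 put 5041 within it, with 267 and 151 unresolved. Tested against a fold of 1.5, 1083 genes were higher and 888 lower. TNF genes taken from the CAP7 libraries gave 294 lowered genes unresolved, 138 past and 76 raised genes past, and from the ROSI libraries 345, 135 and 104. Leaving out 1 library gave 3288 to 3579 higher and 2945 to 3255 lower genes, 3093 to 3338 within the margin, 2522 to 2692 left below, 550 to 721 restored, 460 to 710 unresolved and 43 to 63 past of those lowered, and 2752 to 2927 left above, 383 to 505 restored, 300 to 502 unresolved and 5 to 9 past of those raised. The raised genes past fell from 8 to 5 without any 1 of the untreated replicates.

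With the replicate number as a block, 3640 genes were higher and 3246 lower. All 139 results it gave stayed the same, the counts within 1.5 times those reported and the named genes with their call kept. Replicate numbers do not pair the libraries. The call of Pck1 was lost in 3 settings, and Acads, Hadhb, Elovl5, Cebpd and Hcar1, reported as restored, were called different from untreated in at least 1 setting each; the cause was not tested. DESeq2 called 3562 genes higher and 3421 lower.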
